A study of Canis lupus familiaris with 5 samples.

Results

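The cells described are the dividing members of a CD34-positive, stem-like population of dog bone marrow. They numbered 446 cell barcodes, 283 in CD34-sorted library 1 and 163 in CD34-sorted library 2. That was 1.60% of the 27953 barcodes in 5 libraries, and 6.0% and 4.33% of the barcodes that passed the cell limits in their own libraries. The cells were chosen by the following measured values. A barcode entered with at least 200 genes and at most 10% of its UMIs (unique molecular identifiers, 1 per captured transcript) from mitochondrial genes. Its raw UMIs of SULT1B1, TFPI, RARRES2, ADGRG1 and MSRB3, the stem genes of the rule, had to sum to 6 or more. VPREB1 was allowed up to 2 UMIs, GATA1 up to 1 and PAX5 0, and MPO had to stay under 0.02% of UMIs. MKI67 and TOP2A together had to reach 3 UMIs. Cells meeting all other limits with 0 MKI67 and TOP2A UMIs (841 and 597) are called non-cycling stem-like below, and 189 and 203 cells with 1 or 2 such UMIs were kept out of both classes.

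The material was primary marrow flushed from the femurs of dogs labelled wild type, with red cells lysed and no treatment named. Whole marrow gave 3 libraries, and viable CD34-positive cells sorted from marrows 2 and 3 gave the 2 sorted ones. The labels do not say which sorted library came from which marrow. Each sorted library is 1 sample, so the replicate number is 2 throughout.

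Blood stem cells in adult marrow are mostly quiescent, and their early progeny divide. Passage through G1 is driven by D-type cyclins bound to the kinases CDK4 and CDK6, and E2F factors then switch on the DNA replication genes. MYBL2 and FOXM1 act later, on the genes of G2 and mitosis. MKI67 encodes the coat protein of mitotic chromosomes, and TOP2A, topoisomerase II alpha, untangles replicated DNA. Both transcripts accumulate from S phase to mitosis.

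The label held on its markers, which are given as description because they chose the cells. MKI67 stood at 303 and 326 CPM (UMIs of the gene over all UMIs of the class in a library, scaled to 1000000) and was seen in 83.4% and 81.0% of cells. TOP2A stood at 554 and 464 CPM, in 91.5% and 89.6% of cells. CD34, the surface protein of the sort, reached 467 and 355 CPM, in 98.9% and 96.9% of cells. SULT1B1, a sulfotransferase, reached 213 and 299 CPM, in 84.8% and 92.6% of cells. The other stem genes of the rule were also present, TFPI at 106 and 110 CPM, RARRES2 at 242 and 245, ADGRG1 at 137 and 128 and MSRB3 at 63.8 and 60.4. The sum of MKI67 and TOP2A UMIs per cell had a median of 9 in each library, with ranges of 3 to 149 and 3 to 185.

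Markers of other marrow cells were summed per list in cycling and non-cycling stem-like cells. The neutrophil list summed to 634 and 487 CPM, against 658 and 514 in non-cycling cells, most of it S100A8, and MMP8, LCN2 and CD177 were at 0. The monocyte list summed to 7.28 and 9.82 CPM against 6.73 and 4.15, with C1QB, C1QC, CD163 and MARCO at 0. The pro-B and pre-B list summed to 12 and 11.8 CPM against 18.8 and 14.7, and PAX5, which the rule held at 0, and MME were at 0. Erythroid markers summed to 91.0 and 85.4 CPM against 84.9 and 122. The plasmacytoid dendritic list, led by TCF4 and with none of its 10 genes at 0, summed to 295 and 394 CPM against 286 and 261, higher in cycling cells above all in library 2. The basophil and mast list, led by FCER1A, summed to 62.1 and 82.9 CPM against 92.2 and 136. The T cell list, led by CD2 in library 1 and CD3D in library 2, summed to 114 and 110 CPM against 136 and 123. The mature B cell list, led by FCER2, summed to 132 and 142 CPM against 184 and 191. Plasma cell markers summed to 38.4 and 39.3 CPM against 30.3 and 27.4, and endothelial and stromal markers to 9.71 and 9.32 against 17.5 and 15.1. The part of these levels in the results was not tested.

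Cycling cells carried more RNA than their non-cycling counterparts, a difference that a limit set in raw UMIs also favours. Their median UMIs per cell were 21523 and 23105, against 12688 and 14479, ratios of 1.70 and 1.60. Median genes per cell were 3443 and 3594 against 2496 and 2720. Scrublet, a doublet caller, marked 6.71% and 11% of cycling and 1.90% and 0.335% of non-cycling stem-like cells. The sorted libraries held 4943 and 4880 barcodes and shared 12 cell barcodes, of which 0 were cycling stem-like in either library.

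The limit at 3 UMIs cut a continuous range. Cells with exactly 3 MKI67 and TOP2A UMIs, 42 and 31 of them, held 2356 and 2300 CPM of the G2 and mitosis genes. Cells with exactly 2, 45 and 58 of them, held 2015 and 1526. At the stem limit, 10 and 7 cycling cells stood at a sum of 6, and 16 and 6 otherwise equal cells stood just outside at 5.

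Of the 1313 and 963 stem-like cells, 21.6% (95% exact binomial interval 19.4 to 23.9) and 16.9% (14.6 to 19.4) were cycling. These intervals cover counting error only. Among pro-B cells, B-lineage precursors taken as PAX5 and VPREB1 positive, the share was 33.0% and 57.9%, and among MPO-high cells, neutrophil progenitors, 39.8% and 37.4%. With each cell thinned to 5000 UMIs the stem-like share was 10.1% (8.55 to 11.9) and 6.74% (5.23 to 8.52), after 21 and 13 shallower cells were left out. The thinned share was 58.3% and 74.3% in pro-B cells, where 802 and 363 were left out, and 9.70% and 7.0% in MPO-high cells. At a limit of 1 UMI the thinned shares were 24.6% (22.3 to 27.1) and 20.9% (18.4 to 23.7) in stem-like, 37.1% (31.6 to 42.9) and 31.3% (25.5 to 37.5) in MPO-high and 74.0% and 85.8% in pro-B cells. Of non-cycling pro-B cells, 150 of 866 and 70 of 372 were deep enough for thinning, against 472 of 501 and 631 of 646 cycling ones. The thinned pro-B shares thus leave out mainly non-cycling cells and do not hold for the whole class. Among cells deep enough, the stem-like share was below that of pro-B cells at both limits. It was near that of MPO-high cells at 3 UMIs and below it at 1 UMI. With only 2 libraries these shares were not tested.

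**Figure D1:**
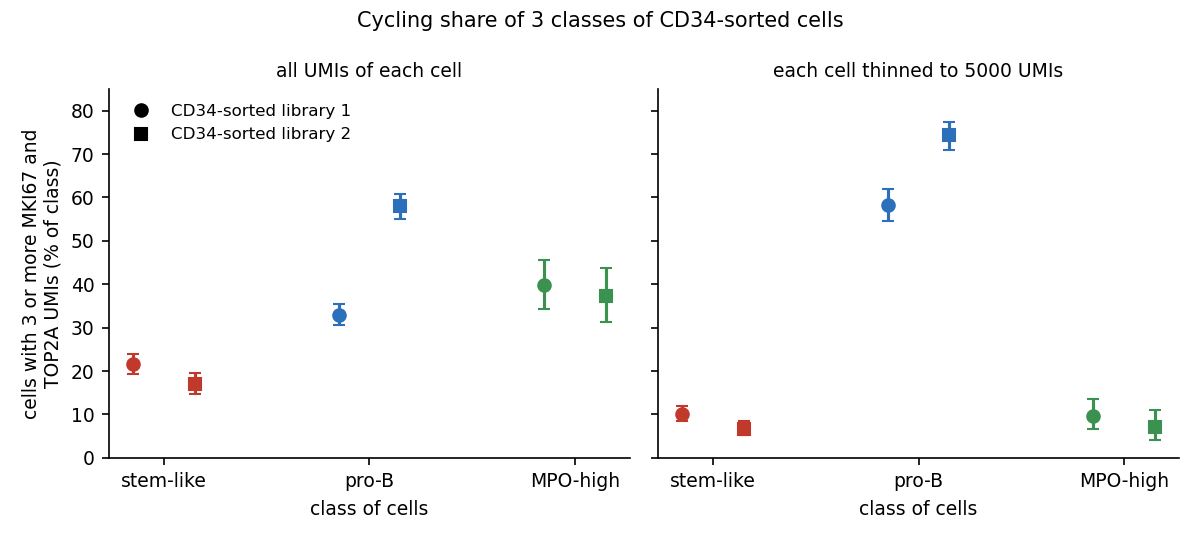
Share of cells with 3 or more MKI67 and TOP2A UMIs in stem-like, pro-B and MPO-high cells of each sorted library, with 95% exact binomial intervals. On the left all UMIs were used; on the right each cell was thinned to 5000 UMIs, and the stem-like values were 10.1% and 6.74%, near those of MPO-high cells at this limit of 3 UMIs, though not at 1 UMI (24.6% and 20.9% against 37.1% and 31.3%).

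The same rule found 21, 13 and 12 cycling cells in the whole-marrow libraries, 25.6%, 20.3% and 23.5% of their stem-like cells. The mean share was 23.2% ± 2.67 (SD, n = 3) in whole marrow and 19.2% ± 3.27 (SD, n = 2) in sorted cells. An exact two-sided permutation test gave p = 0.3, where 0.1 is the smallest this design allows. It treats the 5 libraries as independent, although marrows 2 and 3 gave libraries of both kinds. The ranges did overlap.

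Replication and mitosis genes were counted in each cycling cell after thinning to 5000 UMIs. Cycling stem-like cells held a median of 14 (quartiles 8 to 18) and 13 (7 to 18) UMIs of the replication licensing and fork genes. They held 21 (14 to 33) and 20 (11 to 33) UMIs of the G2 and mitosis genes. Cycling pro-B cells held similar replication counts, 15 and 16, but 66 and 85 mitosis UMIs. Cycling MPO-high cells held 9 and 8 replication and 16 and 12.5 mitosis UMIs, and non-cycling stem-like cells 4 and 5, and 3 and 3. Cycling stem-like cells with more mitosis than replication UMIs made up 71.7% and 69.3%, against 85.4% and 86.4% of pro-B and 63.9% and 62.0% of MPO-high cells. Across pro-B cells the counts ran against each other (Spearman's rho -0.65 and -0.68). In cycling stem-like cells, rho was only -0.095 and -0.025, over cells that share a library, so it is a description with no test.

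**Figure D2:**
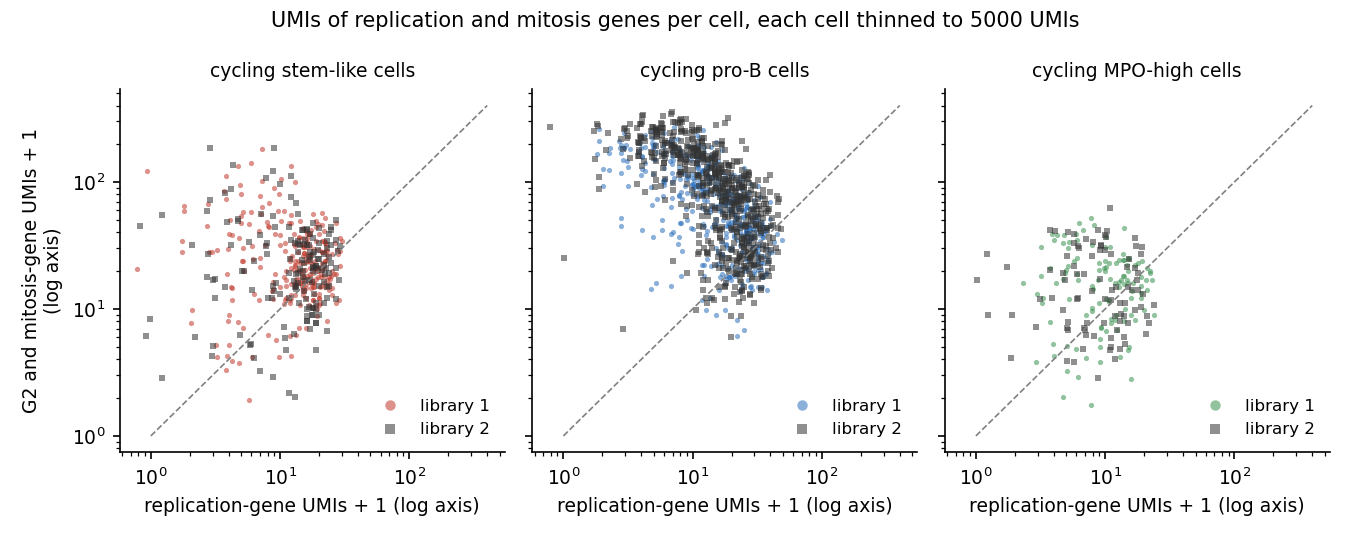
UMIs of replication genes (x axis) and of G2 and mitosis genes (y axis) per cycling cell, both plus 1 on log axes and slightly jittered, each cell thinned to 5000 UMIs; the dashed line marks equal counts. Stem-like cells gather near 14 replication and 21 mitosis UMIs in library 1, whereas pro-B cells form an arc that reaches far higher mitosis counts.

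Cycling and non-cycling stem-like cells were then compared gene by gene on sums per library. The classes come from the same 2 libraries, so the library entered as a block, and 9190 genes were fitted with the quasi-likelihood test of edgeR, its p-values adjusted by Benjamini-Hochberg. At an adjusted p under 0.05, 1101 genes differed (12%), 708 of them higher in cycling cells (7.70%) and 393 lower (4.28%). When each cycling cell was paired with a non-cycling cell of like depth, 332 of 8678 genes were called (3.83%), 307 higher (3.54%) and 25 lower (0.288%). Matching left a gap in library 1, where median UMIs were 21523 against 17234, and a smaller one in library 2, 23105 against 22057. The median log2 fold change of all tested genes was -0.02, and -0.01 after matching.

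Genes of the cell cycle are described only, since MKI67 and TOP2A chose the classes. Of 65 tested G2 and mitosis genes, 64 were called higher, with a median log2 fold change of 3.71 (60 of them called, median 3.31, after matching). ASPM, which organises the spindle pole, stood at 161 and 165 CPM in cycling and 2.18 and 1.53 in non-cycling cells, a log2 fold change of 6.36 ± 0.14 (SE). GTSE1, a microtubule-bound protein of G2, stood at 70.6 and 59.9 against 0.545 and 0.655 CPM. CCNA2, cyclin A2, stood at 44.3 and 43.8 against 0.636 and 0.874 CPM. PLK1, a mitotic kinase, stood at 36.4 and 30.7 against 1.18 and 0.874. These genes were close to silent in non-cycling cells of both libraries. CDC25B, a phosphatase of mitotic entry, was the one tested list member not called.

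Replication genes differed by smaller folds, from a higher base. Of 39 tested, 37 were called higher, with a median log2 fold change of 1.22 (24 of 38, median 0.90, after matching). CLSPN, claspin, the fork checkpoint mediator, stood at 163 and 158 CPM against 10.5 and 10.5, and CDC45, part of the replicative helicase, at 24.9 and 27.7 against 2.00 and 1.86. CDC6, which loads that helicase, stood at 36.6 and 38.8 CPM against 3.91 and 4.48. PCNA, the sliding clamp of the polymerases, stood at 65.7 and 63.2 against 18.6 and 19.8, still about equal between libraries. Nucleotide supply genes moved less, 9 of 18 called higher with a median of 0.52 (5, median 0.20, after matching). Among them TK1, thymidine kinase, stood at 183 and 194 CPM against 30.1 and 23.0, and TYMS, thymidylate synthase, at 319 and 343 against 138 and 154.

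Chromatin proteins and repair factors of dividing cells went the same way. Of 23 chromatin genes 18 were called higher (median 0.83; 13 and 0.75 after matching), and of 28 repair genes 18 (median 0.72; 12 and 0.47 after matching). H1-5, a linker histone, stood at 228 and 177 CPM in cycling against 3.18 and 3.82 in non-cycling cells. HMGB2, a DNA-bending protein, stood at 1769 and 1582 against 426 and 396. FANCD2, the Fanconi anaemia protein of crosslink repair, stood at 76.9 and 62.5 against 11.9 and 7.21.

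**Figure D3:**
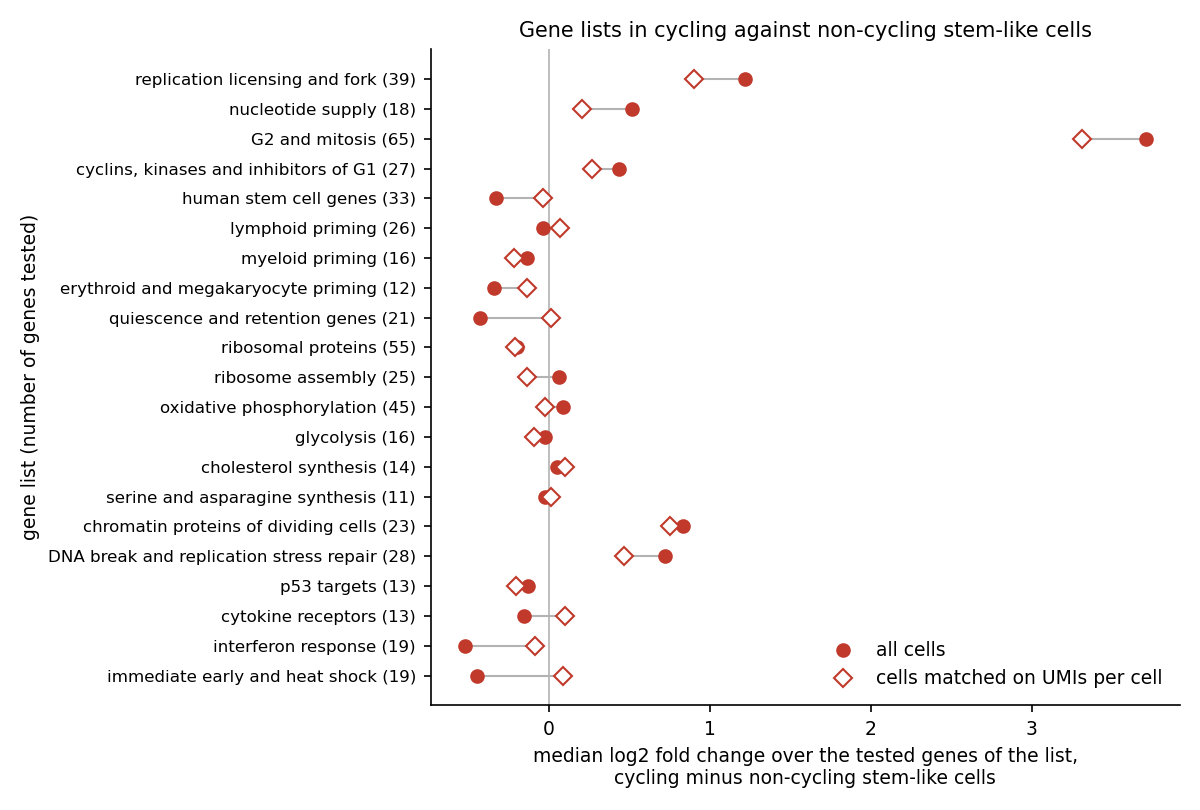
Median log2 fold change of each gene list, cycling minus non-cycling stem-like cells, over the number of tested genes in brackets; filled circles use all cells and open diamonds cells matched on UMIs. The G2 and mitosis list lies far to the right (3.71 and 3.31), and the human stem cell list moves from -0.33 to -0.04 once depth is matched.

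Of 33 tested stem cell genes known from human blood, 8 fell and 1, THY1, rose in cycling cells, where 4.28% and 7.70% of all genes did. Their median log2 fold change was -0.33, but edgeR called 0 of 31 after depth matching (2 higher and 1 lower at an unadjusted p under 0.05), with a median of -0.04. With all cells, DESeq2 called 3 lower and 0 higher. TEK, the angiopoietin receptor, stood at 5.66 and 5.79 CPM against 12.6 and 10.6, a log2 fold change of -1.09 ± 0.25 (edgeR adjusted p = 0.00312). With matched depth it was -0.20 ± 0.33 (adjusted p = 0.885). MEIS1, a homeobox factor of stem cells, went from -0.61 ± 0.18 to -0.11 ± 0.23 with matching. MLLT3, which sustains human stem cells in culture, stood at 33.5 and 20.7 CPM against 48.3 and 38.2, -0.75 ± 0.15, and turned to 0.09 ± 0.18 in matched cells. Other genes were not called on either footing. They include KIT, the stem cell factor receptor, at -0.19 ± 0.13, HOXA9 at -0.16 ± 0.17, CD34 at -0.24 ± 0.50 and TAL1 at -0.19 ± 0.11. An uncalled difference does not show that levels were equal.

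Some of these genes were lower in deeper cells within the non-cycling class alone. In non-cycling cells under 10000 UMIs, MLLT3 stood at 96.2 and 103 CPM, and at 28.2 and 16.5 CPM in cells of 20000 to 25000 UMIs. TEK stood at 23.9 and 32.0 CPM and at 2.92 and 5.98 CPM in the same bins. KIT did not follow depth in this way, at 92.1 and 126 CPM and at 99.1 and 114 CPM. The stem genes of the rule, summed, also went from 1639 and 1653 CPM to 738 and 879 CPM between these bins. A limit of 6 raw UMIs asks a larger share of stem gene UMIs from shallow cells. The part of this selection in the MLLT3 and TEK values was not tested. Within the higher bin the summed human stem cell list was 1574 and 1425 CPM in cycling and 1265 and 1266 CPM in non-cycling cells. In that bin the cycling cells held no less of the list in either library.

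**Figure D4:**
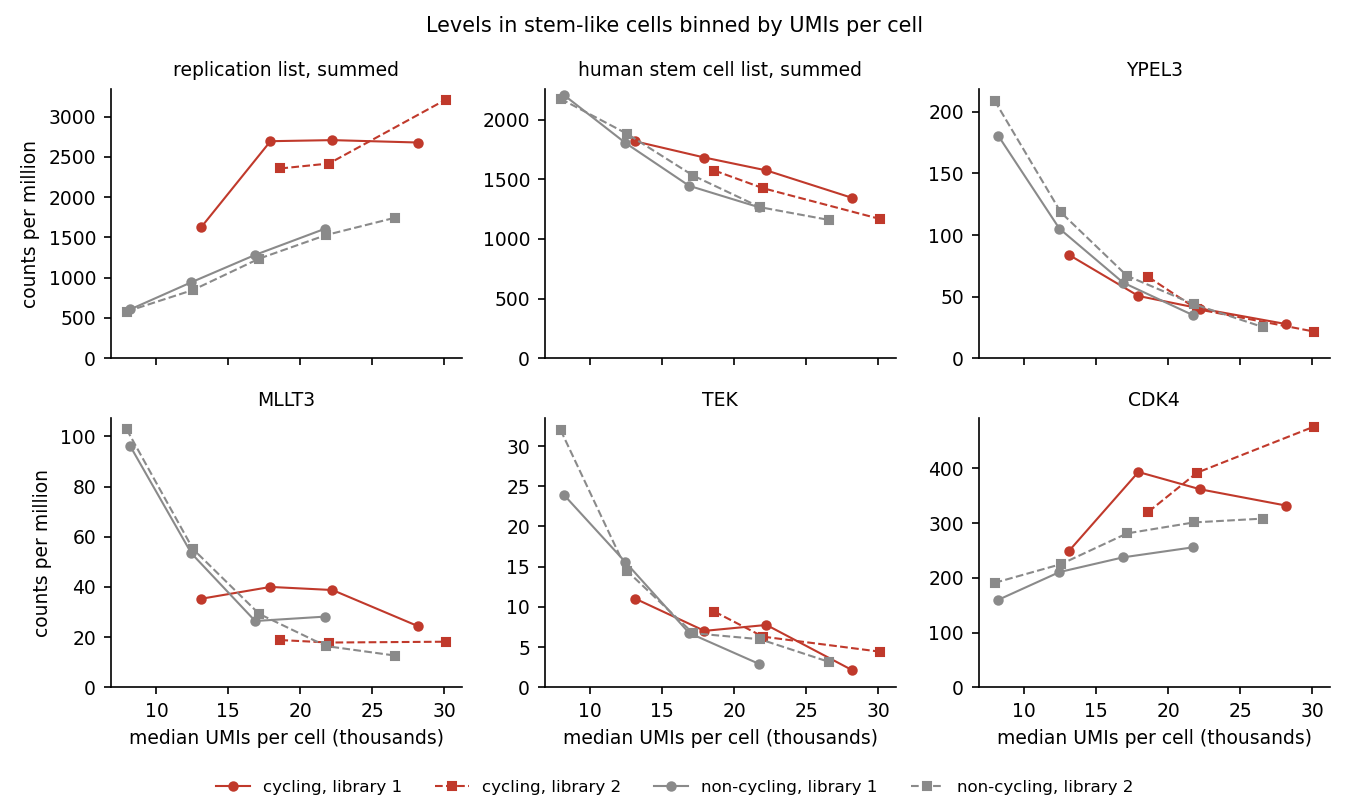
CPM against median UMIs per cell for stem-like cells binned by depth, bins of 20 or more cells only, with cycling cells in red and non-cycling cells in grey, circles for library 1 and squares for library 2. The replication list and CDK4 lie higher in cycling cells at most depths, whereas YPEL3 and TEK fall with depth in non-cycling cells of both libraries.

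YPEL3, a gene tied to growth arrest, was among the most reduced genes. It stood at 41.4 and 39.3 CPM in cycling against 95.1 and 83.7 in non-cycling cells, -1.20 ± 0.12 (edgeR adjusted p = 8.99e-09), and at -0.37 ± 0.20 (adjusted p = 0.524) with matched depth. MPG, a DNA glycosylase, behaved alike, -1.21 ± 0.17 and -0.21 ± 0.22. APOC1, a lipoprotein component, was at -1.0 ± 0.12 and -0.49 ± 0.23. Of all tested genes, 4.28% fell, and 0.288% after matching. Interferon-response genes fell in 4 of 19 cases (median -0.53), and edgeR called 0 after matching (1 at an unadjusted p under 0.05, median -0.09). ISG15, a ubiquitin-like interferon product, stood at 8.42 and 2.27 CPM against 17.4 and 8.96, -1.37 ± 0.27, and at -0.70 ± 0.40 in matched cells. Ribosomal protein genes fell in 36 of 55 cases with a small median of -0.20, and edgeR called 0 after matching (1 at an unadjusted p under 0.05) at nearly the same median, -0.21. One gene outside the cycle that rose on both footings was PACSIN1, an endocytic adaptor chosen after its values were seen. It stood at 12.6 and 17.4 CPM against 6.18 and 5.13, 1.31 ± 0.25 (edgeR adjusted p = 0.000511), and 1.39 ± 0.28 (adjusted p = 0.00324) with matched depth.

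Lineage genes were counted in the same way, where 7.70% of all genes rose and 4.28% fell (3.54% and 0.288% after matching). Of 26 lymphoid genes, 2 fell in edgeR's test and 0 rose (0 rose also at an unadjusted p under 0.05), DESeq2 called 0 either way, and after matching 1 was higher. Of 16 myeloid genes, 3 rose (IRF8, CYBA and CALR; 7.70% of all genes rose) and 1, GFI1, fell, with 0 higher and 1 lower of 15 after matching. Of 5 eosinophil, basophil and mast cell genes, 2 fell, the protease gene CPA3 and the IgE receptor gene FCER1A, and edgeR called 0 of 4 after matching (1 higher and 1 lower at an unadjusted p under 0.05). DNTT, the terminal transferase of lymphoid precursors, stood at 225 and 324 CPM against 314 and 376, -0.40 ± 0.16 (edgeR adjusted p = 0.207). After thinning, DNTT was seen in 63.3% and 73.0% of cycling and 65.2% and 74.3% of non-cycling cells, with MPO-high cycling cells at 22.7% and 29.4%. FLT3, a receptor of multipotent and lymphoid progenitors, stood at 49.2 and 47.6 CPM against 43.4 and 39.6 and was not called. EBF1, the B-lineage factor, was seen in 0.71% and 1.23% of thinned cycling stem-like cells, and in 48.3% and 49.3% of cycling pro-B cells. IL7R, the interleukin 7 receptor, moved oppositely in the libraries, 18.8 CPM against 20.7 in library 1 and 42.6 against 14.2 in library 2. IRF8, a factor of dendritic and monocyte progenitors, rose from 0.909 and 0.765 to 3.88 and 6.04 CPM, 2.42 ± 0.43 (edgeR adjusted p = 0.000189). It missed the threshold with matched depth (1.57 ± 0.46, adjusted p = 0.0632) and when the stem genes were read as a share of UMIs. Few cells held it, 1.77% and 2.45% of thinned cycling and 0.244% and 0.342% of thinned non-cycling cells. In the 10 and 7 cycling cells at a stem sum of 6 it stood at 26.4 and 35.1 CPM. IRF8 and PACSIN1 both belong to the plasmacytoid dendritic list, of which 2 of 9 tested genes were called higher, and 1 after matching.

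The regulators of G1 behaved unevenly. Among all genes, 7.70% were higher and 4.28% lower (3.54% and 0.288% after matching). Of 27 tested cyclins, kinases, inhibitors and E2F-related genes, 11 were called higher and 1 lower, with a median of 0.43 (7 and 0, median 0.27, after matching). CCND2, cyclin D2, was the lower one, at 68.0 and 82.4 CPM against 100 and 139, a log2 fold change of -0.72 ± 0.12, and at -0.51 ± 0.33, not called, in matched cells. CCND1, cyclin D1, stood at 29.6 and 48.1 CPM against 34.3 and 50.1, and CDK6 at 27.8 and 40.8 against 29.9 and 47.7, neither of them called. CDK4 was higher, 349 and 420 CPM against 217 and 265, and missed the threshold in matched cells (0.62 ± 0.07 and 0.42 ± 0.13). CCNE2, cyclin E2, which acts after the D-type cyclins, stood at 38.4 and 47.4 CPM against 10.8 and 8.08. MYBL2 stood at 118 and 119 against 10.5 and 8.96, FOXM1 at 23.3 and 23.9 against 0.909 and 0.546, and E2F8, a repressor of late S phase, at 26.7 and 22.7 against 0.454 and 0.218. Over all cells, CCND1, CCND2 and CDK6 thus did not stand higher in cycling cells in either library, whereas CCNE2 and the later factors did so in both libraries. At 20000 to 25000 UMIs CCND1 was higher in cycling cells, 36.7 and 55.7 CPM against 30.1 and 45.9. In the bins from 10000 to 20000 UMIs it was lower in both libraries. At 20000 to 25000 UMIs CCND2 stood at 68.8 and 96.6 CPM against 97.2 and 117, and CDK6 at 28.4 and 47.3 against 32.1 and 49.4.

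Cycling stem-like cells were next set against cycling pro-B cells. Both had passed the limit of 3 raw MKI67 and TOP2A UMIs, but at median depths of 21523 and 23105 against 8822 and 9430 UMIs, so genes of replication, mitosis and chromatin are again described only. The regulators of G1 went through the same selection, which their adjusted p-values do not take into account. In edgeR's test, 4307 of 9190 genes differed (46.9%), 2265 higher in stem-like cells (24.6%) and 2042 lower (22.2%), and 2928 of 9193 with cells paired by depth (31.9%). Pairing left median UMIs of 21523 against 12620 in library 1 and 23105 against 23054 in library 2, so depth was matched in library 2 alone. The all-gene median was 0.01. The classes use different D-type cyclins. CCND1 stood at 29.6 and 48.1 CPM in cycling stem-like and 2.25 and 4.03 in cycling pro-B cells, a log2 fold change of 3.74 ± 0.20 (adjusted p = 5.82e-14). CCND2 stood at 68.0 and 82.4 CPM against 8.80 and 6.05, 3.56 ± 0.17 (adjusted p = 1.35e-12). CCND3, cyclin D3, went the other way, at 2.91 and 2.27 CPM against 34.8 and 29.5, -3.41 ± 0.26 (adjusted p = 3.36e-11). With cells paired by depth all 3 were called as well, at 3.25, 3.02 and -3.22.

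The partners of these cyclins differed less. CDK6 was higher in stem-like cells, 27.8 and 40.8 CPM against 18.5 and 21.5, 0.94 ± 0.15 (edgeR adjusted p = 1.34e-05), and CDK4 was not called, 0.08 ± 0.07. CDKN2C, the p18 inhibitor of both kinases, stood at 6.64 and 7.81 CPM against 39.1 and 62.0, -2.59 ± 0.22. E2F2 stood at 5.83 and 4.53 CPM against 72.1 and 69.6, -3.58 ± 0.20, and CCNE2 at 38.4 and 47.4 against 124 and 125, -1.38 ± 0.12. MYBL2 was not called, at -0.22 ± 0.13. In total 5 of 27 regulators were higher and 10 lower, where 24.6% of all genes were higher and 22.2% lower.

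The cycling cells of whole marrow gave separate values, in 3 libraries that the sort did not touch, over 46 stem-like cells. CCND2 stood at 48.1, 120 and 60.0 CPM in cycling stem-like cells and was at 0 in the cycling pro-B cells of all 3 libraries. CCND1 stood at 105, 92.1 and 92.6 CPM against 49.8, 7.35 and 0.667, and E2F2 at 2.09, 3.54 and 0 against 23.1, 77.2 and 75.4. CCND3 stood at 10.5, 7.09 and 7.50 CPM against 17.0, 66.1 and 58.7. For each of these genes the ranges of both classes were apart in whole marrow as well. Marrow 2 and marrow 3 also gave the sorted cells, so the animals are not all independent of them.

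**Figure D5:**
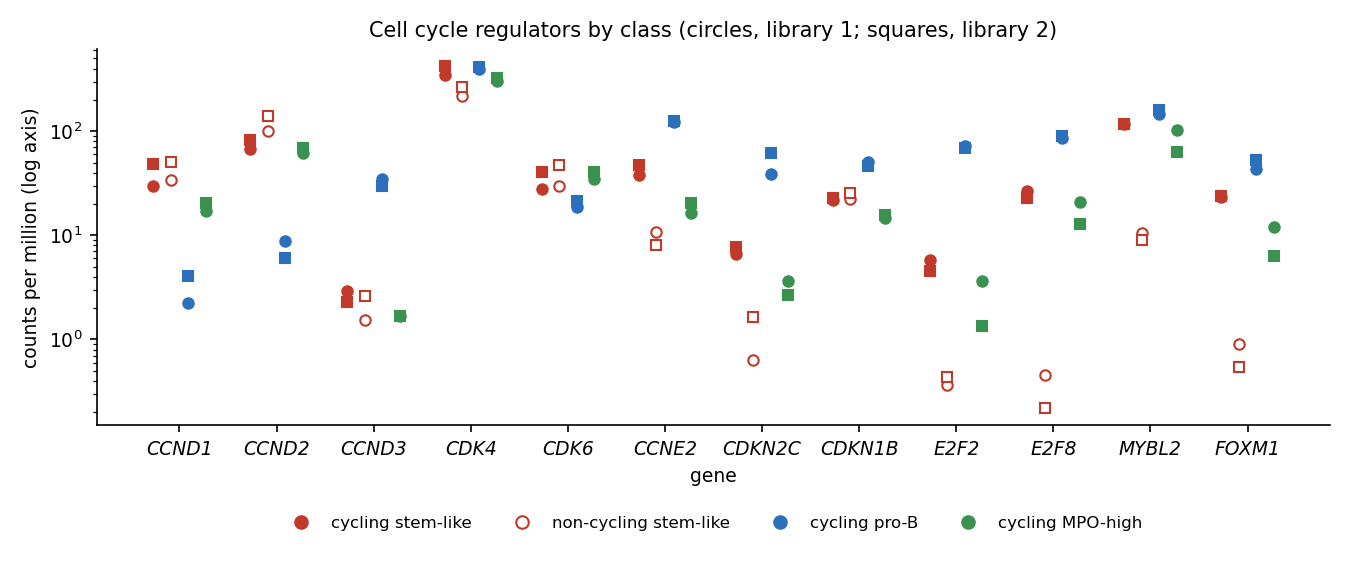
CPM on a log axis of 12 cell cycle regulators in cycling and non-cycling stem-like, cycling pro-B and cycling MPO-high cells, with circles for library 1 and squares for library 2. CCND1 and CCND2 lie at 29.6 to 82.4 CPM in cycling stem-like and at 2.25 to 8.80 CPM in cycling pro-B cells, and CCND3 lies the other way round.

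Mitosis genes were lower in cycling stem-like than in cycling pro-B cells. Of 65 tested, 58 were lower and 0 higher, with a median of -1.35 (52 of 64, median -0.89, with cells paired by depth). ASPM stood at 161 and 165 CPM against 783 and 946, -2.24 ± 0.09, and PLK1 at 36.4 and 30.7 against 170 and 202, -2.30 ± 0.15. HMGB2 was lower too, 1769 and 1582 CPM against 5018 and 4716, -1.37 ± 0.07, as were 18 of 23 chromatin genes, with 1 higher. Replication genes were mixed, 6 higher and 9 lower of 39, where 24.6% of all genes were higher and 22.2% lower. With paired cells 1 was higher and 7 lower, where 17.3% and 14.6% of all genes were. The list thus did not stand out from all genes on the higher side. Among the replication genes, CDC6 was level at -0.01 ± 0.14. MCM3, a subunit of the helicase ring, was higher at 134 and 149 CPM against 81.6 and 103 (0.79 ± 0.10). UHRF1, which carries DNA methylation through replication, was lower at 113 and 168 CPM against 440 and 549 (-1.67 ± 0.10).

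Growth and metabolism genes differed as well. Among all genes, 24.6% were higher in cycling stem-like cells and 22.2% lower (17.3% and 14.6% with paired cells). Of 55 ribosomal protein genes, 55 were higher in cycling stem-like than in cycling pro-B cells, with a median of 0.72 (52, median 0.51, with paired cells). Ribosome assembly genes were higher in 14 of 25 cases and lower in 0, but in only 2 with paired cells. Serine and asparagine synthesis genes were lower in 7 of 11 cases and higher in 2. ASNS, asparagine synthetase, stood at 64.2 and 53.4 CPM against 1336 and 737, -3.94 ± 0.23 (edgeR adjusted p = 1.91e-05). PSAT1, an enzyme of serine synthesis, was at -2.63 ± 0.25, with unequal levels between libraries (41.4 and 7.81 CPM against 274 and 64.8). SLC7A5, a transporter of large amino acids, was at -2.04 ± 0.24. Of 45 oxidative phosphorylation genes, 20 were lower and 6 higher, and 17 and 0 with paired cells (median -0.27).

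Lineage genes in that comparison are a description, since PAX5 and VPREB1 chose the pro-B cells. Of 33 human stem cell genes, 21 were called higher in cycling stem-like cells and 3 lower, where 24.6% and 22.2% of all genes were. KIT stood at 87.2 and 109 CPM against 10.9 and 6.64, TAL1, a stem cell and erythroid factor, at 82.9 and 58.9 against 5.06 and 4.03, and HOXA9 at 42.7 and 27.0 against 12.5 and 7.0. FCER2, the low-affinity IgE receptor CD23, stood at 89.0 and 86.1 against 7.12 and 4.15, and APOC1 at 96.0 and 83.9 against 5.62 and 3.8. DNTT stood at 225 and 324 CPM against 1703 and 1458. The genes with the largest deficits in cycling stem-like cells included the B-lineage genes VPREB3, POU2AF1 and CD72 and the growth factor IGF2.

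Against cycling MPO-high cells, 2632 of 9190 genes differed in edgeR's test (28.6%), 1387 higher in cycling stem-like cells (15.1%) and 1245 lower (13.5%), and 2059 of 8939 with matched depth (23.0%). The all-gene median was 0.03. Cell cycle genes, described only, were higher in the stem-like cells. That held for 48 of 65 mitosis genes, with 0 lower and a median of 0.89 (47 with matched depth), and for 21 of 39 replication genes, with 0 lower and a median of 0.37. ASPM stood at 161 and 165 CPM against 69.7 and 71.3, 1.17 ± 0.10, and FOXM1 at 23.3 and 23.9 against 12 and 6.39, 1.29 ± 0.23. CCND1 stood at 29.6 and 48.1 CPM against 17.3 and 20.5, 0.97 ± 0.17, and CCNE2 at 38.4 and 47.4 against 16.5 and 20.5, 1.17 ± 0.17. CCND2 was not called, 0.15 ± 0.14. The MPO-high cells were the deeper class here, with median UMIs of 30019 and 32129.5. Matching kept 119 and 92 of the cycling stem-like cells, at median UMIs of 26738 and 28241, so the MPO-high cells stayed deeper.

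Against cycling MPO-high cells, 15.1% of all genes were higher in cycling stem-like cells and 13.5% lower (12.4% and 10.7% with matched depth). Oxidative phosphorylation genes were lower in cycling stem-like than in cycling MPO-high cells in 36 of 45 cases and higher in 0, with a median of -0.35 (34 lower with matched depth). ATP5MC1, a subunit of the ATP synthase ring, stood at 337 and 347 CPM against 570 and 546, -0.75 ± 0.11 (edgeR adjusted p = 0.000306). Ribosome assembly genes were lower in 14 of 25 cases, 5 with matched depth. Interferon-response genes were higher in 12 of 19 cases and lower in 0, with a median of 1.26 (9 with matched depth). XAF1, an apoptosis factor induced by interferon, stood at 34.8 and 10.6 CPM against 11.4 and 2.36, 1.66 ± 0.26, a higher level in library 1 in both classes. Among the genes described only, ELANE, neutrophil elastase, stood at 0.647 and 0.756 CPM in cycling stem-like cells and 637 and 1490 in cycling MPO-high cells. Stem cell genes were higher in 19 of 33 cases, and THY1 was lower.

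The step from non-cycling to cycling cells was also compared between classes, as a difference between differences. Raw MKI67 and TOP2A UMIs chose both ends of each step, at unequal depths, so the calls of its cell cycle genes are description only. Between stem-like and pro-B cells it differed for 467 genes in edgeR's test (5.08%), 241 higher (2.62%) and 226 lower (2.46%), and for 264 of 8678 with cells paired by depth (3.04%), 128 higher (1.47%) and 136 lower (1.57%). Pairing did not match the depth of pro-B cells, whose cycling and non-cycling medians stayed at 8822 against 3287 and 7598 against 3059.5 UMIs. Replication genes had the larger step in stem-like cells, 14 of 39 called higher and 0 lower with a median of 0.43 against 0.07 over all genes, but only 4 were called with paired cells. CDC45 differed by 2.15 ± 0.34 on the log2 scale, and CDC6 by 2.06 ± 0.26. The values behind CDC6 were 36.6 and 38.8 CPM against 3.91 and 4.48 in stem-like cells, and 39.9 and 44.7 against 19.7 and 20.4 in pro-B cells. The cycling levels of CDC6 were thus alike, and the non-cycling pro-B cells held more of it.

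Mitosis genes had the smaller step in stem-like cells, with 19 of 65 called lower, 2 higher and a median of -0.83 (13 lower, 1 higher and a median of -1.32 with paired cells). TACC3, a spindle protein, differed by -2.69 ± 0.20. It stood at 119 and 102 CPM against 26.7 and 25.8 in stem-like cells, and at 283 and 242 against 11.9 and 6.39 in pro-B cells. AURKA, a spindle kinase, differed by -1.93 ± 0.32, and TPX2, which activates it, by -1.77 ± 0.22. Non-cycling pro-B cells were shallow, with median UMIs of 2266.5 and 3059.5, and the part of depth in these values was not tested.

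Between stem-like and MPO-high cells the step differed for 133 genes (1.45%), 126 higher (1.37%) and 7 lower (0.0762%), and for 12 with matched depth (0.138%), all of them higher. Matching left cycling and non-cycling MPO-high cells at median UMIs of 28179 against 24396 and 31548 against 29374. Of 65 mitosis genes 22 were called higher, with a median of 1.34, and of 39 replication genes 24, with a median of 0.91, yet 3 and 2 with matched depth. CLSPN was called on both footings, by 2.25 ± 0.24 and 1.71 ± 0.22. It stood at 163 and 158 CPM against 10.5 and 10.5 in stem-like cells, and at 115 and 85.5 against 37.6 and 23.3 in MPO-high cells. Non-cycling MPO-high cells thus held more CLSPN than non-cycling stem-like cells in both libraries.

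Cells with a UMI of a given gene were also scored for cycling. Stem-like cells with a TEK UMI after thinning, 72 and 48 of them, were cycling in 11.1% and 6.25% of cases, against 22.5% and 17.7% of those without one. DNTT divided the cells less, 21.4% and 16.8% against 22.8% and 18.3%. Before thinning, the cells with a TEK UMI had median UMIs of 11541.5 and 13110, against 14785.5 and 17235.5 in those without, and cycling was read from raw UMIs. The part of depth in these shares was not tested.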

How the data were processed

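Single cells of dog bone marrow were measured by 10x droplet RNA sequencing in 3 whole-marrow and 2 CD34-sorted libraries. The deposited values are UMI counts per gene and barcode, made with Cell Ranger, named as 7.0.1 in the headers of the deposited files and as 7.1.0 in the submitters' processing notes. The notes name the build CanFam3.1; its annotation was not given in the sources used here. The deposited barcodes held at least 500 UMIs each, and 4432 of 20257 features had an identifier only. Total UMIs were 62188030 and 70169186 in the sorted and 46114431 to 54074420 in the whole-marrow libraries, and the cell limits removed 4.51% and 22.8% of sorted barcodes.

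Raw counts were summed per library over 6 classes, cycling and non-cycling stem-like, pro-B (PAX5 at least 1, VPREB1 at least 3) and MPO-high (MPO at least 0.2% of UMIs) cells, each of at least 20 cells. The 12 sums entered 1 joint fit with the library as a block, because the classes come from the same libraries (edgeR 4.0.16 in R 4.3.3, TMM, low-count filter, robust, 5 residual degrees of freedom). Genes of the class rules stayed out of the tests. DESeq2 1.42.0 was an alternative. Scripts were tested on simulated data. Doublets were called with Scrublet (scanpy 1.11.5) at 0.8% per 1000 barcodes and kept, and left out in an alternative. Cell cycle genes went through the same fit, but their calls are given as description, also between cycling classes, where a test had been planned. The regulators of G1 are the exception, with adjusted p-values given between cycling stem-like and cycling pro-B cells. These p-values do not take into account that raw MKI67 and TOP2A UMIs chose both classes at unequal depths. Depth matching paired cells by UMIs within a library, and thinning drew 5000 UMIs per cell.

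Named genes were, per comparison, the 12 with the largest change in each direction with an adjusted p under 0.05, the same direction in both libraries and at least 20 CPM in the higher class, and members of the gene lists; 1 such gene is not reported here. The cells and lists were chosen with earlier results of these data known. The sorted libraries come from different marrows. The library block takes out the difference in level that all classes share between the 2 samples. The p-values thus rest on how far the class differences vary between these 2 samples, pooled over the classes of the joint fit. For each gene, edgeR also draws on the spread of the other genes. That shared part weighs as a median of 19.9 degrees of freedom, beside the gene's own 5. The p-values do not carry the spread in level between the samples. Whole marrow was set against sorted cells only for the cycling share and for levels. CD79A was set aside because its counts looked uncertain.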

Additional observations from a re-analysis of the deposited data

Results flagged for a closer look

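A difference between classes in the step from non-cycling to cycling cells, tested as an interaction with edgeR's quasi-likelihood test, singled out 41 values, all in log2 units and all among the genes named by the fixed rule. Raw MKI67 and TOP2A UMIs chose both ends of each step at unequal depths, so the cell cycle genes among them are values and not evidence of a difference. The step in stem-like cells minus that in pro-B cells also rests on shallow non-cycling pro-B cells that pairing by depth did not match. On the higher side were AOX2 (5.03), IGF1 (4.71), ADGRF1 (3.64), MTA3 (3.6), ECM2 (2.47), DCK (2.42), DLA-79 (2.36), E2F2 (2.32), RYR2 (2.26), ST3GAL6 (2.25), CENPU (2.18) and DLA-DQA1 (2.16). The lower side held REEP4 (-2.72), TACC3 (-2.69), ESPL1 (-2.35), PRC1 (-2.05), AURKA (-1.93), TPX2 (-1.77), TUBA1B (-1.75), KIF2C (-1.69), KIF22 (-1.61), CKAP5 (-1.52), TUBB4B (-1.5) and C5orf58 (-1.49).

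For the step in stem-like cells minus that in MPO-high cells, the higher side held PIMREG (4.34), E2F8 (3.11), PRC1 (3.00), GTSE1 (2.96), BUB1 (2.87), CENPU (2.72), KIF23 (2.67), RACGAP1 (2.27), CLSPN (2.25), NDC80 (2.18), NCAPG (2.14) and CDC6 (2.13). The lower side held FAM13B (-1.02), SDF4 (-0.92), BPI (-0.90), ZFC3H1 (-0.77) and SDF2L1 (-0.56). PRC1, the midzone protein that bundles microtubules in anaphase, was lower against pro-B cells and higher against MPO-high cells. No group held enough samples for a check of single outlying samples.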

How the results depend on the processing

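Of 200 named gene differences, all kept their direction under the alternatives that gave them a value (3 had none with DESeq2), except 5 with cells matched on depth. These were, for cycling minus non-cycling stem-like cells, BPI at 0.27, CD34 at 0.042, MLLT3 at 0.085 and MX2 at 0.0051 on the log2 scale, and BPI at 0.42 for the step in stem-like minus MPO-high cells. A call was lost, with the direction kept, in 51 cases with matched depth. It was lost in 18 cases with cycling read as a share of UMIs, 17 with DESeq2 and 1 with RLE size factors. The 5 differences that turned with matched depth are not in the 51. The cause of these losses was not tested. Genes differing between cycling and non-cycling stem-like cells numbered 639 with DESeq2, 332 with matched depth and 2204 with only the classes compared in the fit, against 1101. The step differing from pro-B cells gave 299 genes with DESeq2 and 264 with matched depth, against 467. The step differing from MPO-high cells gave 12 with matched depth, 75 with cycling as a share of UMIs and 304 with only the classes compared, against 133. Without the replicate block of the library, the 5 counts were 325, 2541, 1072, 29 and 22, and 57 named calls were lost. The mean cycling share, 19.2%, was 14.1% at a limit of 5 UMIs, 15.3% as a share of UMIs and 8.44% with cells thinned to 5000 UMIs, and 16.9% to 21.6% leaving out each library in turn. Leaving out a library leaves no residual degrees of freedom, so gene values then have no test, and all 200 kept their direction. IL7R in cycling against non-cycling stem-like cells, which moved oppositely in the libraries, was not among the 200. For genes named by the fixed rule this was set in advance, since the rule asked for the same direction in both libraries. Shares of UMIs as limits in the gene comparisons were chosen after seeing the data. Depth limits the comparison with the pro-B step, whose cells pairing did not match. Gaps in median depth also remained in the stem-like and MPO-high steps and between cycling stem-like and cycling MPO-high cells.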
